A study of Mus musculus with 20 samples.

Results

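Fatty acids are handled in the liver as thioesters of coenzyme A (CoA), and 10 genes that break these thioesters or the CoA molecule itself were followed in mouse liver: the acyl-CoA thioesterases *Acot1*, *Acot2*, *Acot3*, *Acot4*, *Acot8* and *Acot12*, the acyl-CoA:amino acid N-acyltransferases *Acnat1* and *Acnat2*, and the CoA diphosphatases *Nudt7* and *Nudt19*. They were chosen by name for their place in this pathway, with earlier results of these data known. All 10 were found among the 36128 genes of the expression table and in both tables of read counts. Poly(A)-selected liver RNA was sequenced from 4 groups of 5 mice, namely males and females of C57BL/6J (B6), the common inbred laboratory strain, and of CAST/EiJ (CAST), an inbred strain derived from wild *Mus musculus castaneus*. All mice were 8 weeks old and the records name no engineered allele or treatment, so sex and strain define the groups, and each liver gave 1 library. The design asked which genes are sex-biased in each strain and whether the bias is shared.

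Acyl-CoA thioesterases hydrolyse an acyl-CoA to the free acid and CoA, and the different enzymes work in different compartments of the hepatocyte. Acnat enzymes join acyl groups to an amino acid such as taurine, which also frees CoA, and Nudix hydrolases cut CoA or its esters at the diphosphate bond and so consume it. In peroxisomes, where very long-chain and branched fatty acids and bile acid precursors are shortened by beta-oxidation, these reactions set how much CoA is free and let shortened products leave. Many genes of this pathway are known targets of PPARA, the nuclear receptor that responds to fatty acids, and the growth hormone pattern that differs between male and female mice is known to set much of the sex bias of liver genes.

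Many peroxisomal enzymes carry a type 1 targeting signal, a tripeptide at the very end of the protein whose classic form is serine, lysine, leucine. The ends of the coding sequences are therefore shown as a view of where the enzymes are sent, with the last 3 codons before the stop in capitals. Each line gives the last 27 bases before the stop codon, 5′ to 3′, read from the GENCODE transcripts of mm9.
Acot1: gagtgtttgcatgtgtctCCTAAAATA
Acot2: ttccacaaacagttgggtAGCAAGAGT
Acot3: aaaaagaagacaatcccaGCAAAACTG
Acot4: acccacagcagagcctccTGTAGACTG
Acot8: aagcctcaggtgtcagagAGTAAGCTA
Acot12: actcctgatggacttaaaAGTGTGTTA
Acnat1: cacctccttcaatccggaAGCAAACTC
Acnat2: cacctccttcaatccggaAGCAAACTC
Nudt7: ctttggagatattctttaAGCAAGTTG
Nudt19: gtgaataagagatgtactGCCCACCTG
*Acnat1* and *Acnat2* were identical over all 27 bases, while *Acot1* and *Acot2*, which code for a cytosolic and a mitochondrial enzyme, ended in different codons.

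The 4 *Acot* genes with the lowest numbers lie in 1 cluster of related genes on chromosome 12, all on the plus strand. In mm9 the order was *Acot2* (chr12:85328811-85334823), *Acot1* (chr12:85350448-85358621), *Acot4* (chr12:85379329-85385673), *Acot3* (chr12:85393094-85400515), *Acot5* (chr12:85410275-85416970) and *Acot6* (chr12:85441604-85452299), which together spanned 123489 bases. *Acot4* and *Acot3* were 7420 bases apart, the closest neighbours. *Acnat2* (chr4:49392712-49421023) and *Acnat1* (chr4:49459977-49486784) form another pair, on the minus strand with 38953 bases between them. The others stand alone: *Acot8* at chr2:164618268-164630382, *Nudt19* at chr7:36332204-36341323, *Nudt7* at chr8:116657457-116676212 and *Acot12* at chr13:91881117-91925753.

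Near-identical copies matter here because only reads with 1 best place in the genome were counted and reads were 50 bases long. The coding sequences of *Acot1* and *Acot2* were identical at 95.2% of 1239 aligned bases, those of *Acnat1* and *Acnat2* at 96.2% of 1251, and those of *Acot3* and *Acot4* at 73.7% of 1266. The stretch of 50 bases at the middle of each alignment shows what separates a read of one gene from a read of its copy, with the differing bases in capitals.
Acot1: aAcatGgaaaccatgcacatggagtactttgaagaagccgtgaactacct
Acot2: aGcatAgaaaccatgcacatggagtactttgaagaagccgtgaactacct
Acnat1: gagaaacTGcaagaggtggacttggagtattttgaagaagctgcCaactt
Acnat2: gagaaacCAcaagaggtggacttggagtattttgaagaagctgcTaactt
Over all exons, the share of 50-base stretches that occur once in mm9, with no mismatch allowed, was 56.5% for *Acot1*, 67.5% for *Acnat2*, 74.4% for *Acot2*, 74.8% for *Acnat1* and 88.4% for each of *Acot3* and *Acot4*. It was 98.8% for *Nudt7* and 100% for *Acot8*, *Acot12* and *Nudt19*. Values for *Acot1* and *Acot2*, and for *Acnat1* and *Acnat2*, are therefore uncertain as to how reads were split between the copies, and no CAST genome was used for this measure.

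Counted reads per library ranged from 7969482 to 35328573, and levels are given as FPKM, a read count that the authors scaled to library size and to the exon length in their own annotation. For *Acnat1*, *Acot8* and *Nudt19* that length differed from the GENCODE exons of mm9, so the levels of these genes are not ranked against the others. A noncoding RNA of the X chromosome was between 24.9 and 38.3 FPKM in the 10 libraries labelled female and between 0.00705 and 0.0325 in the 10 labelled male, while 4 Y-linked genes were listed at 0 in all. In 10 libraries, those titled B6 female and CAST male, the strain entry of the record names the other strain, and the titles were followed. Markers of hepatocytes were abundant in every liver (summed FPKM of 6 markers 16350 to 29890). All 6 markers of Kupffer cells, the resident macrophages, were higher in B6 than in CAST in both sexes, with summed FPKM of 14.1 to 27.3 in males and 33.2 to 39.5 in females of B6, and of 4.83 to 12.8 and 7.74 to 26.1 in those of CAST. Of 6 lymphocyte markers, 4 were called higher in B6 in males and 5 in females, and none higher in CAST. Over all genes, 13.4% were called higher in B6 in males and 13.9% in females. Lymphocyte markers were low, the highest in males being *Ptprc* at means of 0.435 FPKM in B6 and 0.267 in CAST. Between the sexes of B6, summed marker FPKM did not overlap for 6 of 7 cell types. It was higher in females for hepatocytes (24430 to 29890 against 19420 to 20670), Kupffer cells, sinusoidal endothelial cells (19.3 to 24.7 against 14.9 to 18.3), stellate cells (39.9 to 44.9 against 22.4 to 32.96) and lymphocytes (1.52 to 3.29 against 0.979 to 1.49). It was higher in males for red blood cells (26.9 to 36.5 against 2.83 to 5.42), a sum that is *Alas2* alone since the 4 globin genes were listed at 0. In CAST it did not overlap for hepatocytes only (19420 to 25230 in females, 16350 to 17980 in males). The hepatocyte sum was mostly *Alb*, with means of 13940 FPKM in males and 21740 in females of B6, and 12820 and 18510 in CAST. Means of *Cps1* were also higher in females, but those of *Apoa1*, *Ttr* and *Serpina1c* were lower in both strains. *Hnf4a* was 61.9 in males and 63.0 in females of B6, and 77.1 and 63.7 in CAST. The median male-over-female log2 fold change of the 6 markers was 0.08 in B6 and 0.05 in CAST. The part of these markers in the results for sex and strain was not tested. In whole liver, fewer cells of a type and less RNA per cell cannot be told apart.

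On the FPKM scale, which is per length, *Nudt7* had the highest level in males of both strains, with a mean of 116.6 ± 27.9 FPKM (SD, n = 5) in B6 and 94.0 ± 19.8 in CAST. In CAST females *Nudt7* was 22.2 ± 6.36 FPKM and *Acnat2* 38.6 ± 9.03. *Acnat1* lay between 10.7 and 23.5 FPKM in the 4 group means. *Acot2*, the mitochondrial enzyme, was low everywhere, with group means from 0.184 to 1.47 FPKM.

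**Figure D1:**
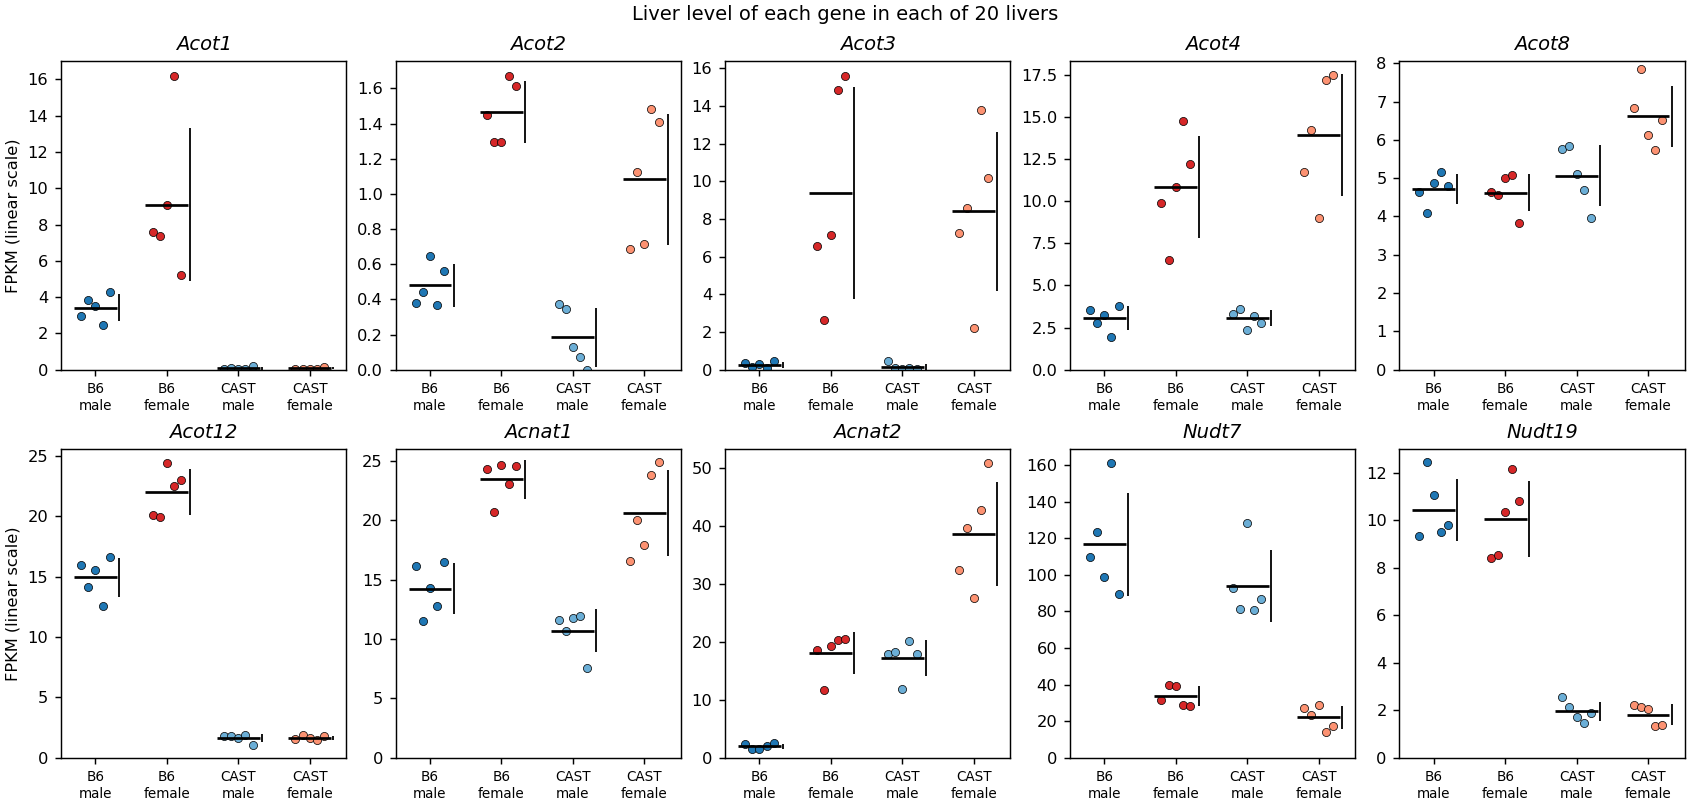
FPKM (linear scale from 0, a separate scale for each gene) of the 10 genes in each of 20 livers. Points are livers, horizontal lines are group means and vertical lines are ± SD (n = 5). In both strains female livers lie above male livers for Acot2, Acot3, Acot4, Acnat1 and Acnat2, and below them for Nudt7, where 6.89% (B6) and 5.81% (CAST) of all genes did not overlap between the sexes.

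A gene was called sex-biased when the sexes differed by more than 2-fold at an adjusted p below 0.05 (edgeR quasi-likelihood test, Benjamini-Hochberg over all genes). In B6, 5 of the 10 genes were female-biased (*Acot1*, *Acot2*, *Acot3*, *Acot4* and *Acnat2*) and 1 was male-biased (*Nudt7*). Over all 25690 genes tested in B6, 1.24% were called female-biased and 1.16% male-biased. In CAST, 5 were female-biased (*Acot2*, *Acot3*, *Acot4*, *Acnat1* and *Acnat2*) and again *Nudt7* was male-biased, against 1.17% and 0.882% of 24722 genes. *Acot2*, *Acot3*, *Acot4*, *Acnat2* and *Nudt7* were called in both strains, each in the same direction in both. FPKM did not overlap between the sexes for 8 of the 10 genes in B6 and 6 in CAST, beside 6.89% and 5.81% of all genes. The median log2 fold change (male over female) of the 10 genes was -1.04 in B6 and -0.73 in CAST, beside 0.02 and -0.01 over all genes tested. Because the 10 were chosen with earlier results of these data known, an excess over all genes was not tested.

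**Figure D2:**
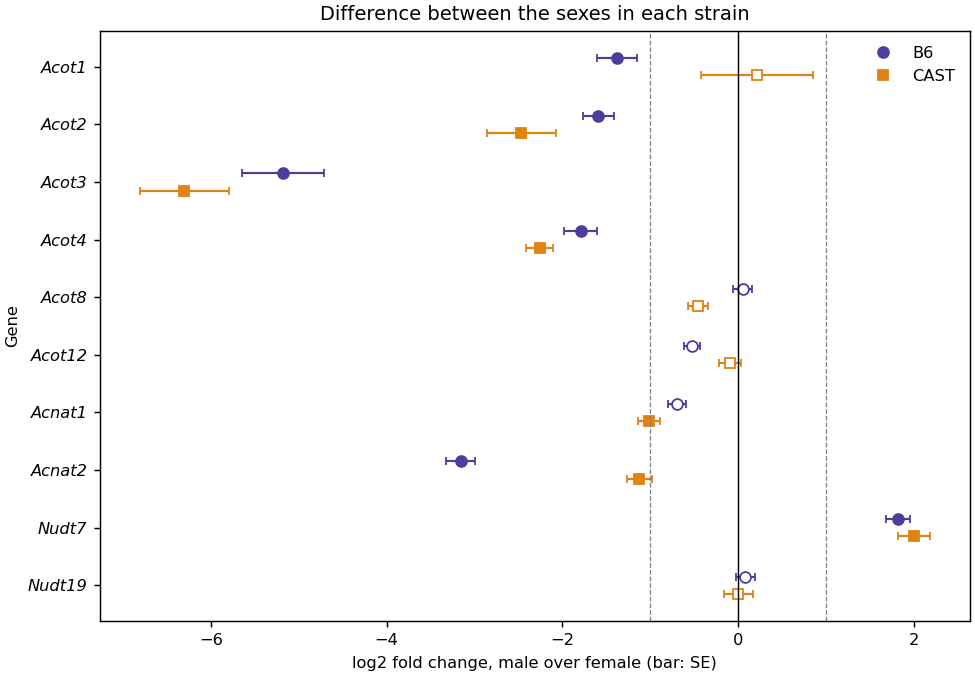
log2 fold change, male over female, of the 10 genes in B6 (circles) and CAST (squares), with SE as bars. Filled symbols were called (more than 2-fold, dashed lines, and adjusted p below 0.05). Acot3 lies farthest to the female side in both strains, at -5.17 and -6.30, and Nudt7 is the only gene on the male side that was called.

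*Acot3*, a peroxisomal thioesterase for medium- and long-chain acyl-CoAs, had the strongest female bias of the 10. In B6 males it was 0.336, 0.121, 0.300, 0.0664 and 0.468 FPKM in the 5 livers, and in B6 females 6.58, 2.65, 7.16, 14.9 and 15.6. In CAST males it was 0.441, 0.104, 0.0183, 0.0779 and 0.0198 FPKM, and in CAST females 7.27, 8.60, 2.22, 13.8 and 10.2. No male liver reached the lowest female liver of its strain, but females of 1 strain differed among themselves by several fold. The log2 fold change was -5.17 (SE 0.47, adjusted p = 6.7e-07, edgeR) in B6 and -6.30 (SE 0.51, adjusted p = 9.5e-08) in CAST, on counts of 1 to 50 reads in the male libraries. Leaving out any 1 liver gave -5.49 to -4.90 in B6 and -7.03 to -5.96 in CAST, where the value of -7.03 was that without CAST male 1.

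*Acot4*, which hydrolyses succinyl-CoA and other dicarboxylic acyl-CoAs in peroxisomes, shared the direction with a smaller range. In B6 males it was 3.55, 2.76, 3.27, 1.96 and 3.79 FPKM, and in B6 females 9.88, 6.52, 10.8, 14.8 and 12.2. In CAST males it was 3.30, 3.59, 2.38, 3.19 and 2.78 FPKM, and in CAST females 11.8, 14.2, 9.01, 17.2 and 17.5. The sexes did not overlap in either strain, and male *Acot4*, unlike male *Acot3*, stayed well above the level of a few reads. The log2 fold change was -1.79 (SE 0.19, adjusted p = 4.8e-06, edgeR) in B6 and -2.26 (SE 0.15, adjusted p = 7.1e-09) in CAST.

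The start regions of these neighbours are shown because the genes moved together. The 250 bases before the start, from the RefSeq-based promoter table of GRCm38.p6 (plus strand, 5′ to 3′), were searched on both strands, together with the 50 bases after it, for 2 copies of AGGTCA 1 base apart, the direct repeat bound by PPARA with RXR and by HNF4A, with up to 3 mismatches. Capitals mark a match, which for *Acot3* runs on past the last base shown.
Acot3, chr12:84051901-84052150: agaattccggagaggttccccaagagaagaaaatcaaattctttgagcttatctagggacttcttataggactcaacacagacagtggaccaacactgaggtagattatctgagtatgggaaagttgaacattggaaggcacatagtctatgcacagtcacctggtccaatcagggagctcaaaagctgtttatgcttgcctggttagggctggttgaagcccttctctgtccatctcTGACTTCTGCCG
Acot4, chr12:84038129-84038378: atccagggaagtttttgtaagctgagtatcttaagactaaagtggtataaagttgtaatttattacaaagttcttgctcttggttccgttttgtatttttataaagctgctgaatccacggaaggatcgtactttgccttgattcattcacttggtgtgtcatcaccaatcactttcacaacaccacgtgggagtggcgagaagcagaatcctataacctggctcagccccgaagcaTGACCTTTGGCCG
The match had 3 mismatches in *Acot3* and 2 in *Acot4*, both on the minus strand, 12 and 13 bases before the start. Another listed start of *Acot3* has the same match 5 bases before it. With up to 3 mismatches the repeat was in the promoters of 5 of the 10 genes and in 24.6% of all 32851 promoters, and an exact copy was in none of the 10 and in 0.04%. The letters TTCNNNGAA, bound by STAT5 and BCL6, were in 8.3% of all promoters, and ATCGAT, bound by CUX2 and HNF6, in 0.925%, and neither was in a promoter of the 10.

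*Acot2* and *Acot1*, the near-identical pair of the cluster, differed from each other in how they behaved. *Acot2* was 0.380, 0.441, 0.649, 0.369 and 0.563 FPKM in B6 males against 1.45, 1.30, 1.29, 1.67 and 1.62 in B6 females. In CAST males it was 0.373, 0.346, 0.128, 0.0725 and 0 FPKM, the 0 standing for none of 8333780 reads, which allows a true count of up to 3, and in CAST females 0.686, 1.13, 0.715, 1.48 and 1.41. Females were above males in both strains, with log2 fold changes of -1.60 (SE 0.18, adjusted p = 9.4e-06, edgeR) and -2.47 (SE 0.40, adjusted p = 0.00048). *Acot1*, the cytosolic enzyme, was 2.96, 3.86, 3.51, 2.45 and 4.30 FPKM in B6 males and 7.59, 7.39, 9.06, 16.2 and 5.21 in B6 females, without overlap and with a log2 fold change of -1.38 (SE 0.23, adjusted p = 0.00071). In CAST *Acot1* was all but absent, with 1 to 9 reads in each male and 3 to 7 in each female library, and the sexes were not told apart (log2 fold change 0.21, 95% interval -1.04 to 1.47, adjusted p = 0.93).

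The acyltransferases were higher in females as well. *Acnat2* was 2.33, 1.54, 1.53, 2.06 and 2.47 FPKM in B6 males and 18.6, 11.7, 19.2, 20.3 and 20.5 in B6 females. In CAST males it was 17.9, 18.2, 11.9, 20.1 and 17.8 FPKM, and in CAST females 32.4, 39.6, 27.5, 42.7 and 50.7. CAST males thus stood in the range of B6 females, and B6 males alone were low. The log2 fold change was -3.16 (SE 0.16, adjusted p = 2.9e-10, edgeR) in B6 and -1.13 (SE 0.14, adjusted p = 2.7e-05) in CAST. *Acnat1*, which forms N-acyltaurines in peroxisomes, was 14.3 ± 2.15 FPKM in males and 23.5 ± 1.66 in females of B6, and 10.7 ± 1.83 and 20.7 ± 3.63 in males and females of CAST. Its log2 fold change was -0.69 (SE 0.10, adjusted p = 0.00022) in B6 and -1.01 (SE 0.12, adjusted p = 2e-05) in CAST, so that a gap in call stood beside similar values on either side of 2-fold. With the reads of both genes summed the log2 fold change in B6 was -0.95 (SE 0.11, adjusted p = 9.2e-06, edgeR), below 2-fold, and in CAST -1.05 (SE 0.12, adjusted p = 4.8e-06). *Acnat1* had more reads than *Acnat2* in all 20 libraries. Reads that fit both copies equally were not counted, so these sums do not show how reads were split between the copies.

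*Nudt7*, the main CoA diphosphatase of liver peroxisomes, was the 1 gene that was higher in males. It was 109.6, 123.2, 98.9, 161.3 and 89.8 FPKM in B6 males and 31.6, 39.7, 39.0, 29.04 and 28.2 in B6 females. In CAST males it was 92.5, 81.1, 128.4, 80.9 and 86.9 FPKM, and in CAST females 27.1, 23.4, 29.01, 14.1 and 17.3. Every male liver was above every female liver of either strain. The log2 fold change was 1.82 (SE 0.14, adjusted p = 7.5e-08, edgeR) in B6 and 2.0 (SE 0.18, adjusted p = 4.2e-07) in CAST. *Nudt19*, another CoA diphosphatase, known mainly from kidney, showed no detectable sex difference, with log2 fold changes of 0.08 (95% interval -0.13 to 0.29) in B6 and -0.00 (-0.32 to 0.32) in CAST.

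*Acot8* and *Acot12* differed little between the sexes. *Acot8*, a peroxisomal thioesterase of broad substrate range, was 4.71 ± 0.395 FPKM in males and 4.62 ± 0.495 in females of B6, and 5.07 ± 0.785 and 6.61 ± 0.806 in those of CAST. The sexes differed in CAST at a log2 fold change of -0.46 (SE 0.11, adjusted p = 0.019, edgeR) but not detectably in B6 (0.05, 95% interval -0.16 to 0.25). *Acot12*, the cytosolic acetyl-CoA hydrolase, was higher in B6 females than males at -0.53 (SE 0.09, adjusted p = 0.00095) and gave -0.10 (95% interval -0.34 to 0.15) in CAST. At an adjusted p below 0.05 and any fold, 8 of the 10 genes passed in B6, against 7.55% of all genes, and 7 in CAST, against 5.65%.

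Taken as a cluster, *Acot1* to *Acot6* summed to 7.35, 7.29, 7.87, 4.96 and 9.18 FPKM in B6 males and to 25.7, 18, 28.5, 47.7 and 34.9 in B6 females. In CAST the sums were 4.80, 4.82, 3.61, 4.20 and 3.38 FPKM in males and 21.2, 25.1, 13.1, 34.0 and 30.8 in females. The sums of males and females did not overlap, and the ratio of the means, female over male, was 4.22 in B6 and 5.96 in CAST (each p = 0.00794 by a two-sided exact permutation test, the smallest 5 against 5 livers allow, adjusted p = 0.0106 over 4 tests). B6 males were above CAST males by a ratio of 1.76 (p = 0.00794, adjusted p = 0.0106, exact permutation test). Mean *Acot1* was 3.415 FPKM in B6 males and 0.0758 in CAST males, *Acot4* 3.06 and 3.05, and *Acot6* 0.115 and 0.712. *Acot2* was 0.480 and 0.184, *Acot3* 0.258 and 0.132, and a sum without *Acot1* was not tested. Females of the strains were not told apart (31.0 ± 11.2 against 24.8 ± 8.23 FPKM, p = 0.357, exact permutation test).

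What made up the sum changed with sex and strain. *Acot3* gave 3.29% of it in B6 males and 28.3% in B6 females, and 2.86% and 31.8% in CAST. *Acot1* gave 46.8% and 30.2% in B6 males and females but 2.0% and 0.274% in CAST, where *Acot4* led with 73.5% and 57.7%. *Acot6*, the last gene of the cluster and also coding for a peroxisomal thioesterase, gave 17.4% in CAST males and 5.80% in CAST females against 1.66% and 0.680% in B6. *Acot5* had no read in any B6 library, which allows a true count of up to 3 in each, and at most 0.0530 FPKM in a CAST library.

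**Figure D3:**
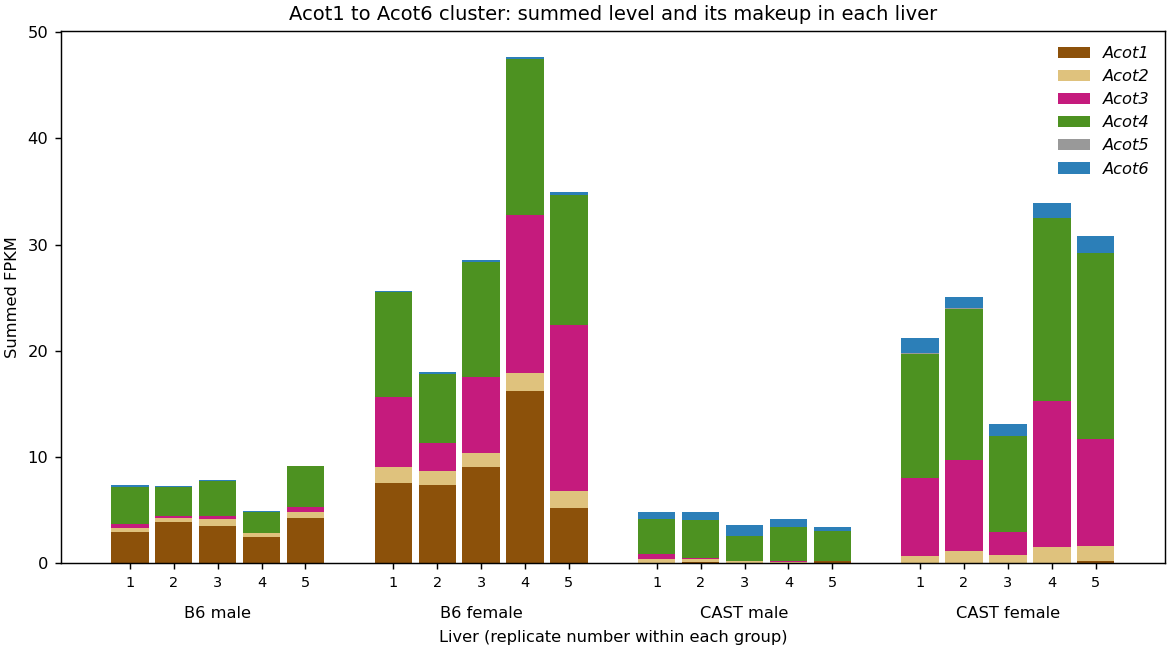
Summed FPKM of Acot1 to Acot6 in each liver (bars from 0, stacked by gene), with the replicate number of the liver below each bar. Female bars are 13.1 to 47.7 FPKM tall and male bars 3.38 to 9.18, and the Acot1 segment is visible in B6 only.

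Between strains, 5 of the 10 genes were called in males, *Acot1*, *Acot2*, *Acot12* and *Nudt19* higher in B6 and *Acnat2* higher in CAST. In females 4 were called, the same genes apart from *Acot2*. Strain calls were common over all 25779 genes: 13.4% were higher in B6 and 10.4% in CAST in males, and 13.9% and 10.4% in females. B6 reads were aligned to mm9 and CAST reads to a genome rebuilt from mm9 with CAST variants, so strain and reference genome cannot be told apart. Of 9673 genes with a mean of at least 1 FPKM in either strain, 330 were more than 32-fold higher in B6 and 376 more than 32-fold higher in CAST. Among those is *Fabp1*, the abundant fatty acid-binding protein of hepatocytes, at 1924 FPKM in B6 males and 0.0151 in CAST males, named after its values were seen.

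*Acot1* had the largest strain difference of the 10. Against 2.45 to 4.30 FPKM in B6 males, the CAST males were at 0.0332, 0.0778, 0.0455, 0.0258 and 0.197, and against 5.21 to 16.2 in B6 females, the CAST females were at 0.0229, 0.0472, 0.0469, 0.0576 and 0.168. The log2 fold change, B6 over CAST, was 5.56 (SE 0.38, adjusted p = 8.1e-13, edgeR) in males and 7.25 (SE 0.36, adjusted p = 5.4e-16) in females. With the reads of *Acot1* and *Acot2* added up before the fit, it was 3.50 (SE 0.31, adjusted p = 2.2e-10, edgeR) in males and 2.75 (SE 0.26, adjusted p = 5.1e-10) in females. In every B6 library *Acot1* had more reads than *Acot2*, as with 254 against 46 in B6 male 1. Reads that fit both genes equally were not counted, so this sum does not test how *Acot1* reads were placed.

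*Acot12* and *Nudt19*, whose exons are unique in mm9, were higher in B6 as well. *Acot12* was 15.9, 14.1, 15.5, 12.6 and 16.6 FPKM in B6 males and 1.78, 1.79, 1.64, 1.85 and 1.09 in CAST males. In females it was 20.1, 19.9, 24.4, 22.5 and 23.03 FPKM in B6 and 1.59, 1.84, 1.62, 1.46 and 1.78 in CAST. The log2 fold change was 3.21 (SE 0.11, adjusted p = 2.8e-19, edgeR) in males and 3.64 (SE 0.11, adjusted p = 1.7e-20) in females. *Nudt19* was 10.4 ± 1.30 FPKM in B6 males and 1.96 ± 0.409 in CAST males, and 10.1 ± 1.59 and 1.81 ± 0.431 in females. Its log2 fold change was 2.44 (SE 0.15, adjusted p = 1.4e-13) in males and 2.34 (SE 0.15, adjusted p = 2.1e-13) in females, and no B6 liver overlapped a CAST liver for either gene. The strains did not overlap for 4 of the 10 genes in males and 5 in females, beside 26.5% of all genes in each sex.

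*Acnat2* ran the other way, at -3.08 (SE 0.18, adjusted p = 1.3e-14, edgeR) in males and -1.06 (SE 0.16, adjusted p = 2.6e-06) in females, B6 over CAST. *Acnat1*, its near-identical neighbour, was at 0.45 (SE 0.12, adjusted p = 0.0039) in males and 0.12 (95% interval -0.12 to 0.35) in females. When the reads of both were added up, the log2 fold change was -0.10 (95% interval -0.33 to 0.12) in males and -0.21 (95% interval -0.44 to 0.01) in females, and neither passed the test. *Acot3* and *Acot4* were not called between strains in either sex, with 95% intervals of -0.30 to 2.74 and -0.34 to 0.42 in males and -0.69 to 0.87 and -0.79 to -0.08 in females, the last at adjusted p = 0.057. *Acot2* was at 1.24 (SE 0.36, adjusted p = 0.0077) in males and 0.37 (95% interval -0.20 to 0.94) in females, on few reads in CAST males. *Acot8*, the broad peroxisomal thioesterase, was at -0.61 (SE 0.11, adjusted p = 6.8e-05) in females, below 2-fold, and -0.09 (95% interval -0.31 to 0.13) in males. *Nudt7* was 0.33 (95% interval -0.02 to 0.68) in males and 0.50 (SE 0.18, adjusted p = 0.028) in females.

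**Figure D4:**
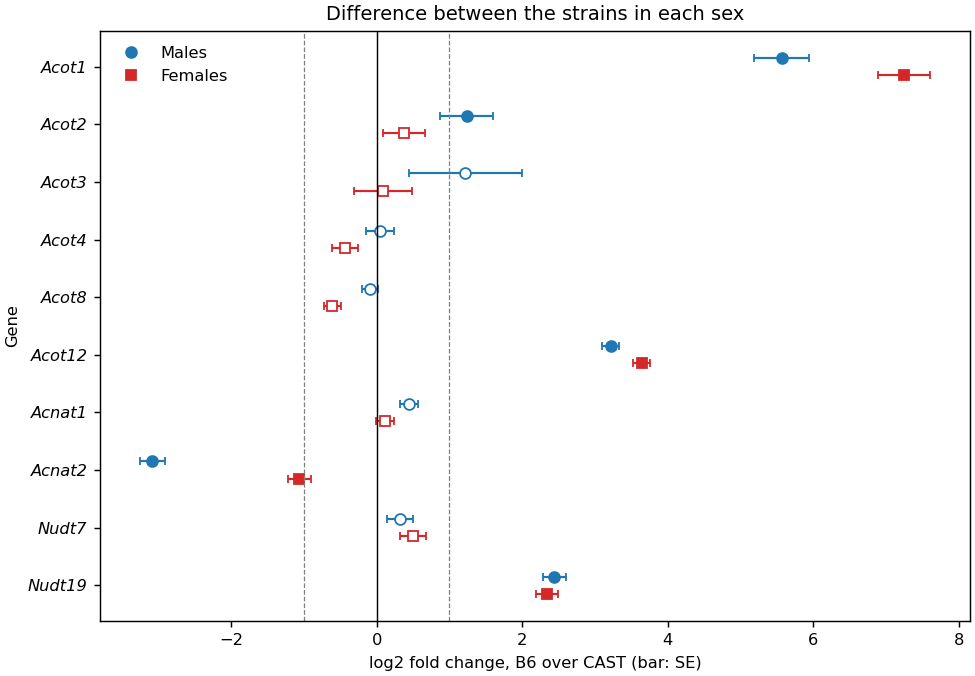
log2 fold change, B6 over CAST, of the 10 genes in males (circles) and females (squares), with SE as bars. Filled symbols were called. Acot1, Acot12 and Nudt19 lie far to the B6 side in both sexes and Acnat2 to the CAST side.

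Whether the sex bias itself differed between strains was tested as an interaction in the fit of all 20 livers. *Acnat2* alone passed at an adjusted p below 0.05 (edgeR), as did 2.28% of all genes. By the DESeq2 test 3 of the 10 passed, *Acot8* (adjusted p = 0.040) and *Acot12* (adjusted p = 0.027) besides *Acnat2*, and 1161 of all genes in place of 588. Its male-over-female log2 fold change was lower in B6 than in CAST by 2.02 (SE 0.23, adjusted p = 2.7e-06). With the reads of *Acnat1* and *Acnat2* added up, the difference was 0.11 (95% interval -0.21 to 0.43, adjusted p = 0.91), and the bias of the pair was -0.95 (SE 0.11) in B6 and -1.05 (SE 0.12) in CAST. For *Acot1* the difference was -1.68 (SE 0.73, adjusted p = 0.27) and for *Acot3* 1.13 (95% interval -0.59 to 2.85), both resting on few reads in some groups. For *Nudt7* it was -0.17 (95% interval -0.67 to 0.33). By limma on log2(FPKM + 1) *Acot1* passed, at -1.13 (adjusted p = 0.022).

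Livers of the same sex and strain also varied together, a relation looked for after the values were seen. The log2(FPKM + 1) of each liver was taken relative to its group mean, and the deviations of *Acot3* were compared with those of the 9 other genes over 20 livers. *Acot4* followed *Acot3* closely, with Pearson's r 0.877 and Spearman's rho 0.895 (permutation test, adjusted p = 9e-05 for each over 9 relations, the smallest that 100000 permutations can give). Without the 2 livers farthest from the median of *Acot3*, r was 0.763, and it was 0.876 within B6 and 0.880 within CAST. *Nudt7* ran opposite, with r -0.657 and rho -0.695 (adjusted permutation p = 0.0019 and 0.0029), r -0.621 without the 2 farthest livers, and -0.637 and -0.688 within the strains.

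*Acnat2* (r 0.726, rho 0.687, adjusted permutation p = 0.0019 and 0.0045) and *Acot2* (r 0.643, rho 0.699, adjusted permutation p = 0.001 and 0.0015) moved in the direction of *Acot3*, and r without the 2 farthest livers was 0.463 and 0.626. *Acnat1* did so more weakly (r 0.469, rho 0.514, adjusted permutation p = 0.022 and 0.032, r 0.390 without the 2 farthest). The relations with *Acot1*, *Acot8*, *Acot12* and *Nudt19* did not pass, with r from 0.0252 to 0.302. Within groups, the other female-biased genes of both strains were thus higher, and *Nudt7* lower, in livers with more *Acot3*. Over the same livers the deviation of *Acot3* had r -0.224 with the log2 of the read total and -0.350 with the summed hepatocyte markers, mostly *Alb*. It had r 0.0956 with the summed markers of Kupffer cells and 0.446 with those of sinusoidal endothelial cells. The part of these measures in the relation was not tested.

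**Figure D5:**
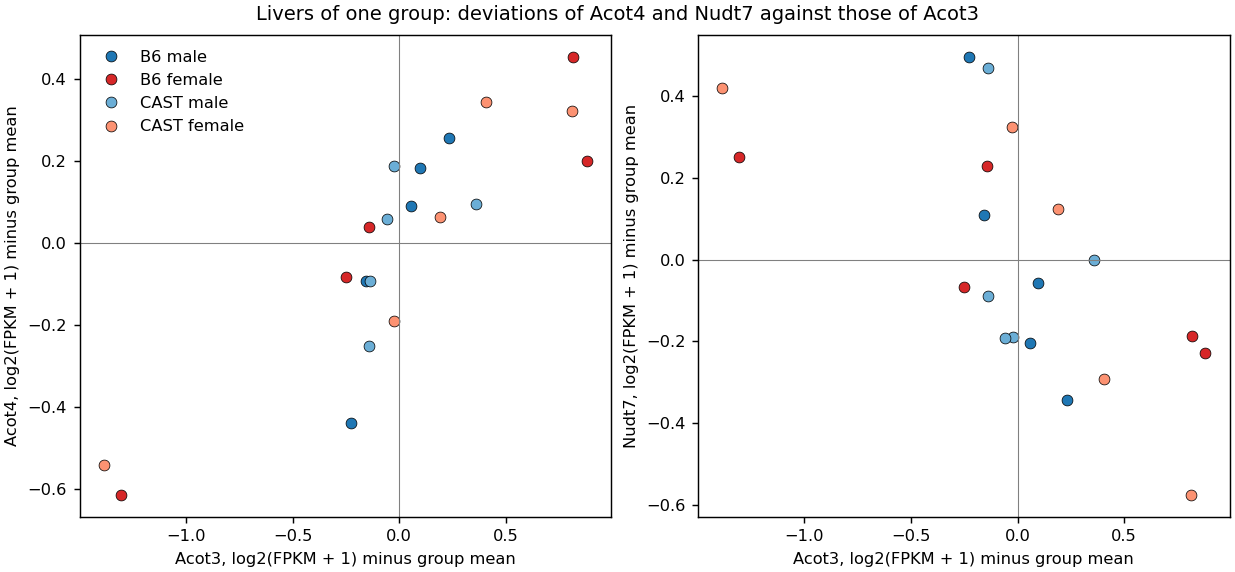
Deviation of each of 20 livers from its group mean, log2(FPKM + 1), for Acot3 (horizontal axis) against Acot4 (left, vertical axis) and Nudt7 (right, vertical axis), coloured by group. Points rise to the right for Acot4 (r 0.877) and fall for Nudt7 (r -0.657).

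The protein-coding genes whose pattern over the 20 livers was closest to *Acot2*, *Acot3*, *Acot4* and *Nudt7*, each called in both strains, were found by the Euclidean distance of Z-scored log2(FPKM + 1) among 8893 or 8894 genes with a mean of at least 1 FPKM. *Acot3* and *Acot4* were each other's nearest (distance 1.03). After *Acot4*, *Acot3* was nearest to *Slc16a5*, a monocarboxylate transporter, and *Cux2*, a female-specific liver transcription factor (1.22 and 1.24), and *Acot4* was next nearest to *Gstt3* and *Cyp2b9* (1.33 and 1.34). *Nudt7* was nearest to *Keg1* (0.891), the complement gene *C6* (1.15) and the fatty acid elongase *Elovl3* (1.29). *Acot2* was nearest to the cardiolipin synthase *Crls1* (1.42), the fatty acid hydroxylase *Cyp4a14* (1.44) and *Acnat1* (1.48).

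Around these 10 genes, 96 other gene names in 5 lists were looked up in the same fits: other thioesterases, CoA synthesis and breakdown, acyl-CoA synthetases, peroxisomal beta-oxidation, and PPARA with mitochondrial oxidation. Between the sexes, 7 of 90 tested were called in B6 (2 male-biased, 5 female-biased, beside 1.16% and 1.24% of all genes) and 10 of 90 in CAST (3 and 7, beside 0.882% and 1.17%). Without the B6 female numbered 4, 4 were called in B6, and by limma on log2(FPKM + 1) 4 were called in each strain. The median log2 fold change of the 90 was -0.04 in B6 and -0.19 in CAST. Between strains, 22 of 91 were called in males (16 higher in B6, 6 in CAST) and 21 in females (15 and 6), shares near those over all genes (13.4% and 10.4% in males, 13.9% and 10.4% in females). The sex bias differed between strains in 14 of 91, beside 2.28% of all genes, and in 23 by the DESeq2 test.

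Among the 14 other thioesterase names, none of the 10 genes tested was sex-biased in B6 by edgeR or DESeq2 (4 had an unadjusted p below 0.05) and 2 of 11 were in CAST. *Acot13*, a small thioesterase of the hotdog-fold family, was 18.3 to 23.9 FPKM in all B6 livers, but 0.298 to 4.59 in CAST males and 4.46 to 20.9 in CAST females. CAST livers of 1 sex thus differed severalfold among themselves while B6 livers were alike. Its male-over-female log2 fold change was -2.79 in CAST (SE 0.49, adjusted p = 0.0013, edgeR) and -0.02 in B6 (adjusted p = 0.94), and the biases differed (2.76, adjusted p = 0.0051). *Acot6* was 0.712 ± 0.232 FPKM in CAST males and 1.34 ± 0.227 in CAST females, a log2 fold change of -0.93 (adjusted p = 0.0054).

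In the list of CoA synthesis, transport and breakdown, 2 of 17 genes were called in B6 and 3 of 17 in CAST. *Vnn1*, the pantetheinase that salvages the vitamin part of CoA, was female-biased in both strains, at 3.52 ± 0.906 against 11.7 ± 2.36 FPKM in B6 (log2 fold change -1.72, adjusted p = 7.1e-07, edgeR) and 0.211 ± 0.0579 against 0.553 ± 0.250 in CAST (-1.41, adjusted p = 0.013). *Enpp1*, a pyrophosphatase of the cell surface, was called in B6 only (-1.05, adjusted p = 1.4e-05, against -0.11 in CAST), and its bias differed between strains (-0.92, adjusted p = 0.00098).

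The acyl-CoA synthetases, which make the thioesters that thioesterases break, had 2 of 19 genes called in B6 and 1 in CAST. *Acss3*, a mitochondrial synthetase for short-chain acids such as propionate, was 1.18 ± 0.265 FPKM in males and 6.54 ± 1.45 in females of B6, and 10.5 ± 0.642 and 12.8 ± 3.21 in those of CAST. B6 males were the lowest group, and B6 females lay below both groups of CAST. Its log2 fold change was -2.43 (adjusted p = 1.7e-08, edgeR) in B6 and -0.36 (adjusted p = 0.13) in CAST, and the difference was -2.06 (adjusted p = 1.1e-06). *Acsm2*, of the medium-chain group, was at 2.44 in CAST (adjusted p = 3.3e-05) and 0.04 in B6, at levels below 1 FPKM throughout.

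In peroxisomal beta-oxidation, 2 of 22 genes were called in B6 and 4 in CAST. *Abcd2*, a transporter of very long-chain acyl-CoAs into peroxisomes, was female-biased in both, at 1.24 ± 0.681 against 9.41 ± 1.35 FPKM in B6 (log2 fold change -2.88, adjusted p = 9.8e-07, edgeR) and 1.76 ± 0.415 against 7.75 ± 1.89 in CAST (-2.21, adjusted p = 2.1e-08). *Scp2*, the sterol carrier protein whose longer form is a peroxisomal thiolase, was male-biased in B6 at 770.4 ± 76.6 against 313.5 ± 12.8 FPKM (1.32, adjusted p = 9.5e-09) and passed in CAST at 0.43 (adjusted p = 0.024). In the list of PPARA and mitochondrial oxidation, 1 of 22 genes was called in B6 and none of 21 in CAST by edgeR or DESeq2 (14 had an unadjusted p below 0.05 in edgeR). *Acadl*, the long-chain acyl-CoA dehydrogenase (-0.36 in B6, adjusted p = 0.012, and -0.75 in CAST, adjusted p = 0.00015), and *Hadh* (-0.38, adjusted p = 0.0041, and -0.49, adjusted p = 0.0021), both enzymes of mitochondrial beta-oxidation, were higher in females by less than 2-fold.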

How the data were processed

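Poly(A)-selected RNA of 20 livers (5 per sex and strain) was sequenced as paired reads of 50 bases. Per the labels and the methods of the study, the authors aligned B6 reads to mm9 with TopHat2 and CAST reads to a CAST genome rebuilt from mm9, counted uniquely aligned reads on exons with featureCounts, and tested sex with edgeR; the kit marks strand, and the strand setting of the counting is not given in the sources used here. The authors deposited raw read counts per gene for each strain and a table of FPKM for all livers. Their fold changes, p-values, scaled counts and medians were not used (24 columns of per-sample or median values).

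Counts were fitted with edgeR 4.0.16 (quasi-likelihood, TMM, at least 1 read, Benjamini-Hochberg over all genes) in R 4.3.3. Sex was tested within each strain's 10 libraries, and strain and the interaction in a joint fit of 25779 genes. From that fit 2028 genes of only 1 count table were left out. Summed FPKM was compared by two-sided exact permutation tests. On simulated counts for sex in B6 (25396 genes), 196 of 200 genes changed 4-fold were called. Alternatives were library size alone, DESeq2 1.42.0 (size factors and test), the edgeR exact test, filterByExpr, limma 3.58.1 on log2 of FPKM plus 1 or 0.1, a replicate block, neighbouring related genes summed, and each liver left out. Group replicates were separate mice, and the smallest chi-square per degree of freedom between libraries of 1 group was 8.08, so none was counted as a duplicate. Limits for counts of 0 cover counting error only. The 95% intervals of fold changes come from the edgeR standard error, which includes the spread between livers.

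The 10 genes and all lists were chosen with earlier results of these data known. Named were the 10 genes; from each list the genes called for sex in both strains, filled up to 2 genes by the smallest adjusted p for sex in either strain where fewer were called; and the 3 genes nearest in pattern to each of the 10 called in both strains. Those of *Acnat2* are not reported here. Of the listed names 5 were in none of the tables, and some of them may be other names of listed genes. Sequences came from mm9 with GENCODE vM1 and from the promoter table of GRCm38.p6, read with Python 3.11.15 and Biopython 1.88.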

Additional observations from a re-analysis of the deposited data

Results flagged for a closer look

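In 40 sets of 5 livers (10 genes in 4 groups), 7 held a liver far from the other 4 by Dixon's test at its 95% critical value of 0.71, where chance flags about 1 set in 20. Of these, 5 were CAST males. *Nudt7* was 128 FPKM in CAST male 3, the highest of its group, and *Acnat2* was 11.9 FPKM in the same liver, the lowest of its group. CAST male 5 was lowest for *Acot12* at 1.09 FPKM and for *Acnat1* at 7.56 FPKM. CAST male 1, which had the fewest counted reads of the 20 libraries, was highest for *Acot3* at 0.441 FPKM. *Acnat2* was 11.7 FPKM in B6 female 2, below the 18.6 to 20.5 FPKM of the other B6 females, and that liver also had the least *Acot3* of its group. *Acot1* was 0.167 FPKM in CAST female 5, on 7 reads.

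The sex bias of *Acnat2* differed between the strains by -2.02 on the log2 scale (edgeR interaction test, adjusted p = 2.7e-06). Every B6 female was above every B6 male and every CAST female above every CAST male. With the reads of *Acnat1* and *Acnat2* summed, the difference was 0.11 (adjusted p = 0.91, edgeR), with a bias of -0.95 in B6 and -1.05 in CAST.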

How the results depend on the processing

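The counts of the 10 genes called for sex (6 in B6, 6 in CAST) and for strain (5 and 4) stayed within 1.5 times of these under every alternative for which they were counted, which leaves out the summed genes and, for strain, the edgeR exact test. With the livers left out in turn they were 6 to 6, 5 to 6, 5 to 5 and 3 to 4, and the genes with a bias that differed between strains were 1 to 2 (2 without CAST male 5). That last count was 3 by the DESeq2 test (*Acot8* at adjusted p = 0.040 and *Acot12* at 0.027 joined *Acnat2*), 3 by limma on log2(FPKM + 1) and 2 by limma on log2(FPKM + 0.1) with a mean FPKM of at least 0.1. *Acot1* joined in both limma fits (adjusted p = 0.022 and 0.040) and *Acot12* in the first (0.030). The sex difference of *Acot8* in CAST did not pass with library size alone (adjusted p = 0.096, edgeR), by limma (0.053 to 0.13), or without CAST male 4 (0.053) or CAST female 2 (0.058). The strain difference of *Nudt7* in females did not pass without B6 female 2 (0.084) or 3 (0.065) or CAST female 4 (0.11) or 5 (0.088), and passed in males without CAST male 3 (0.038). *Acot4* in females passed the strain test without any 1 of 6 livers (adjusted p 0.013 to 0.050).

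With the reads of neighbours summed (*Acot1* with *Acot2*, *Acnat1* with *Acnat2*, and *Acot3* with *Acot4*, which are not near-identical), 3 values that passed the test with or without summing turned sign: *Acot1* for sex in CAST (-2.21), *Acnat1* for strain in males (-0.10) and *Acnat2* for the interaction (0.11). Values that passed in neither fit also turned sign for the interaction of *Acot1* (0.75) and for strain in females of *Acnat1* (-0.21) and *Acot3* (-0.20). *Acnat2* for sex in B6 was then -0.95, below the 2-fold of a call, and for strain it no longer passed in males or females (-0.10 and -0.21). Of the listed related genes, 7 were called for sex in B6 (4 by limma on log2(FPKM + 1), 4 to 7 with livers left out), 10 in CAST (4 and 6 by limma with a pseudocount of 1 and 0.1, 8 to 10 with livers left out) and 14 for the interaction (23 by DESeq2, 10 to 17 with livers left out). For strain they were 21 to 23 in males and 20 to 22 in females with livers left out. Over all genes, the interaction called 588 genes (1161 by DESeq2, and 356 to 768 with livers left out, 356 without B6 female 3 and 366 without CAST female 1). Sex called 617 of all genes in B6 and 508 in CAST, but 151 and 148 by limma on log2(FPKM + 1). Strain called 6146 in males and 6281 in females, but 1710 and 1709 by that limma fit. The causes were not tested.

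Replicate numbers were not taken to pair the samples. Over 10967 genes the mean correlation of same-numbered livers was 0.0658 for B6 males with B6 females, 0.164 in CAST, -0.0606 for the males of the strains and 0.121 for the females. For livers of different numbers these means were -0.0166, -0.0413, 0.0162 and -0.0304. With a replicate block, 761 genes were called for sex in B6 and 606 in CAST (617 and 508 without it), and no call of the 10 genes for sex changed, while the strain difference of *Acot4* in females passed the test (-0.43, adjusted p = 0.047). For the summed *Acot1* to *Acot6* FPKM, an exact sign-flip test of same-numbered livers cannot go below 0.0625, and the sex differences (-23.7 in B6 and -20.7 in CAST) and the strain difference in males (3.17) each had adjusted p = 0.0833 in that block. With livers left out these differences were -26.9 to -19.5, -23.6 to -18.4 and 2.71 to 3.76, and that in females 1.96 to 9.39. Depth limits *Acot1* in CAST, *Acot3* in males and *Acot2* in CAST males, which rest on few reads.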
